A study of Sus scrofa with 18 samples.

Results

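The 10 genes described here encode neuronal tubulins, proteins that bind microtubules and proteins needed for migrating neurons and growing axons: DCX, DCLK1, PAFAH1B1, TUBB3, TUBB2B, STMN2, MAP1B, MAP2, MAPT and GAP43. They were taken by name from the gene-wise count table. All 10 were found among its 31908 genes, 9 by the name in the table and TUBB3 by its Ensembl identifier, and all 10 were among the 16325 genes with enough counts to be tested. RNA had been sequenced from whole brains of pig fetuses at gestation day (GD) 45, 60 and 90, with 3 females and 3 males at each day, 18 libraries in all. The fetuses came from Landrace × Large White gilts bred to boars of 1 paternal line, so all groups share that cross, and the labels name no treatment. Within each day, 1 female and 1 male share each of 3 litter sizes, and these pairs were taken as litter mates, so the 18 libraries stand for 9 litters.

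Microtubules are hollow filaments of alpha and beta tubulin that give a neuron its shape and carry its cargo. In the fetal brain, newborn neurons pull their nucleus along such filaments as they migrate into the cortical plate, and then extend an axon and dendrites that are held open by microtubule-associated proteins. Mutations of DCX, PAFAH1B1 (the gene of LIS1), TUBB3 and TUBB2B are known for causing malformations of the human cortex. In bulk tissue, more cells of a type and more RNA per cell cannot be told apart, so every level below is one of the whole brain.

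The libraries held 15118843 to 19729783 counts, with a median of 16413097. Male GD45 replicate 17 stood apart. Its normalization factor by trimmed mean of M values (TMM) was 0.849, against 0.943 to 1.07 in the other 17 libraries, and its levels fell most steeply with the length of the gene. This length trend was measured in each library as the slope of log2 CPM (read counts scaled to the size of the library), less the mean over libraries, on log2 gene length, over all tested genes but the 10. It was -0.187 in male GD45 replicate 17 and ranged from -0.072 to 0.117 elsewhere. At GD90 the slopes of the 3 females (-0.067 to 0.030) lay below those of the 3 males (0.077 to 0.117). A like slope on GC content, per 10%, was 0.219 in male GD45 replicate 17 and -0.100 to 0.138 elsewhere. This GC slope was -0.032 to 0.138 in GD60 males and -0.087 to 0.006 in GD90 males. Correlations of the 10 genes with it are not given here. Male GD45 replicate 17 and its litter mate, the GD45 litter of 8, had brain weights of 0.7135 and 0.6653 in the labels. The other 4 GD45 fetuses had 1.55 to 1.86, on a scale whose unit is in doubt. The litter of 8 enters every GD45 value. At GD45 replicate 17 was also the lowest or the highest library in the summed level of 8 of 9 lists of cell type markers. Neuronal markers were present throughout: RBFOX3, a nuclear protein of maturing neurons, was at 21.1 to 50.6 CPM at GD45 and 89.4 to 121 CPM at GD90.

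The 10 genes split into a steady and an unsteady set, seen in the plot of level by library. Over 18 libraries the highest level exceeded the lowest by 44.1-fold for MAP2, by 26.2-fold for MAP1B and by 24.5-fold for DCX. The lowest library of all 3 was male GD45 replicate 17. For MAP2 it was at 17.9 CPM with the next library at 91.2 CPM, and for MAP1B at 48.7 CPM with the next at 188 CPM. These 2 ranges thus rest in part on that library. For DCX the lowest 2 libraries were at 14.2 and 14.4 CPM. For DCLK1 that ratio was 4.09, and for the other 6 genes it lay between 1.72 (MAPT) and 2.42 (TUBB2B). The lowest count of any of the 10 in any library was 183, so counting error is small beside these ranges.

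**Figure D1:**
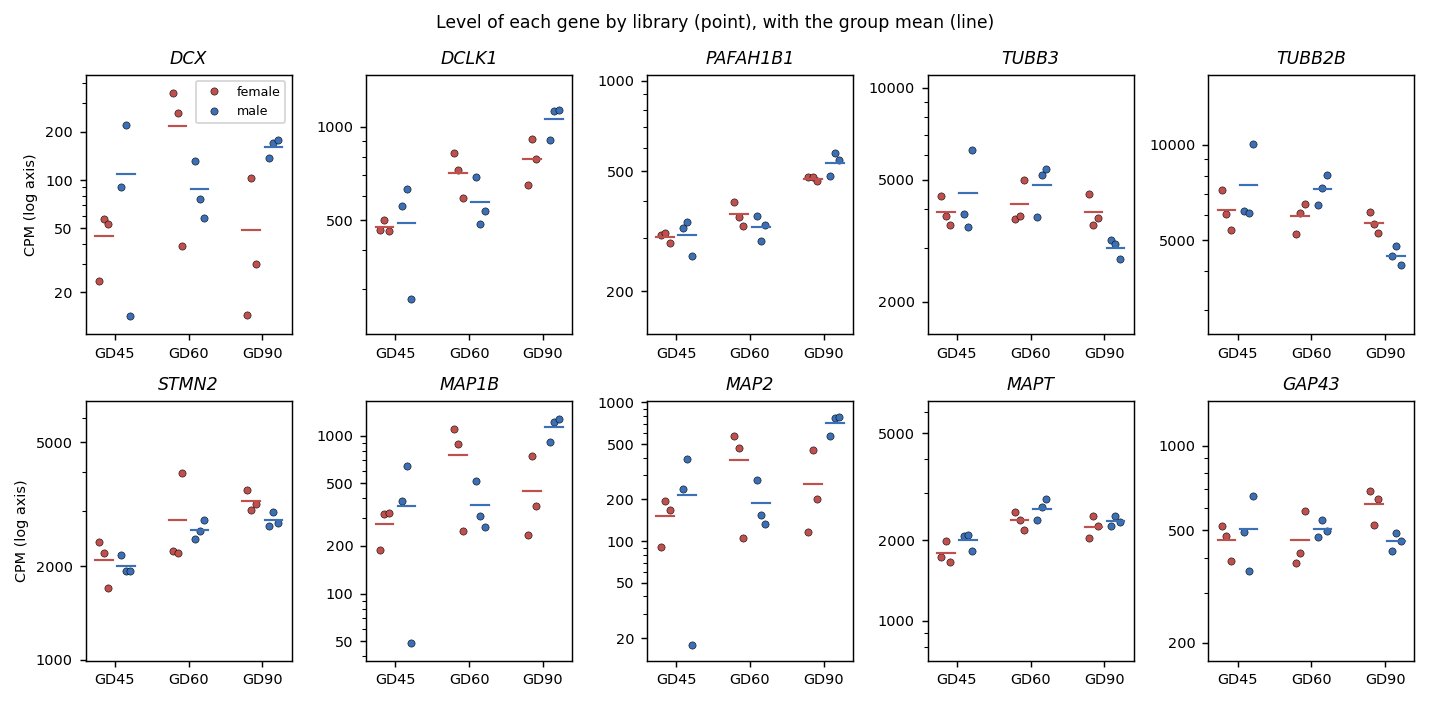
CPM with TMM factors (log axis, its range set for each gene) of the 10 genes in each library, by gestation day, with females in red and males in blue and a line at the mean of each group of 3. The points of DCX, MAP1B and MAP2 spread over 24.5-fold or more, with male GD45 replicate 17 the lowest of each, while those of MAPT stay within 1.72-fold.

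Per base of the gene model in the count table, TUBB3 led at every day. The place of TUBB2B in this order rests on a model of 5389 bases that also covers other RefSeq genes. In CPM, TUBB2B stood above TUBB3, with GD45 means of 6830 and 4233. At GD45 TUBB3 had 1729 ± 425 FPKM (CPM divided by the gene length in kilobases; SD, n = 6 libraries), TUBB2B 1267 ± 314, STMN2 789 ± 94.4, MAPT 255 ± 24.8 and GAP43 171 ± 37.8. PAFAH1B1 (45.4 ± 4.05), DCLK1 (36.4 ± 8.97), MAP2 (23.5 ± 16.5), MAP1B (19.3 ± 12.2) and DCX (8.20 ± 8.07) followed. The order of the means was the same at GD60. At GD90 STMN2 (1162 ± 115 FPKM) stood above TUBB2B (941 ± 137 FPKM), and did so in 6 of 6 libraries. The ranges over 6 libraries overlapped between neighbors from PAFAH1B1 down to DCX at every day, and DCLK1 lay above MAP2 in 3 of 6 libraries at GD90. GAP43 lay above PAFAH1B1 in all 18 libraries.

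TUBB3 encodes the beta tubulin used as a label of neurons. In females it was at 4424, 3801 and 3560 CPM at GD45, at 3714, 3801 and 4990 CPM at GD60, and at 4486, 3553 and 3744 CPM at GD90. In males it was at 3870, 3497 and 6249 CPM at GD45, at 3773, 5186 and 5406 CPM at GD60, and at 3168, 3086 and 2757 CPM at GD90. The female groups overlapped at all days, whereas the 3 GD90 males lay below every other library. In males TUBB3 fell by 0.67 on the log2 scale from GD60 to GD90 (SE 0.20, edgeR adjusted p = 0.0179) and by 0.60 from GD45 (SE 0.20, adjusted p = 0.0238), while in females the GD90 against GD60 value was -0.09 (adjusted p = 0.791). The GD45 call was lost without male GD45 replicate 17 (log2 value -0.31, adjusted p = 0.142) or male GD90 replicate 10 (-0.54, adjusted p = 0.0829). The GD60 call was lost without male GD60 replicate 6 or 16 or male GD90 replicate 10 (adjusted p = 0.0642, 0.0759 and 0.0683). In sums over litter mates of both sexes, GD90 was called neither against GD60 (log2 -0.38, adjusted p = 0.0501) nor against GD45 (-0.27, adjusted p = 0.118).

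TUBB2B encodes a beta tubulin that is abundant in migrating neurons. Its values ran between 5250 and 7184 CPM in the 9 females. In males they were 6175, 6108 and 10075 CPM at GD45, 6479, 7321 and 8020 CPM at GD60, and 4453, 4790 and 4172 CPM at GD90. The GD90 males were again the lowest libraries of the series. TUBB2B fell by 0.70 from GD60 (SE 0.18, adjusted p = 0.00681) and by 0.74 from GD45 (SE 0.18, adjusted p = 0.00302) in males, and held these calls in all 33 alternative fits. In females the values were -0.07 and -0.13 (adjusted p = 0.806 and 0.600). The TUBB2B model of the count table runs from 1910585 to 1956119 on the minus strand of chromosome 7 (Sscrofa11.1). Besides RefSeq's TUBB2B (1952705 to 1955780) it covers the RefSeq genes LOC100624785 (1910585 to 1914668) and LOC110261696 (1924751 to 1952936) on the same strand. Its counts may thus hold those of other genes.

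MAP2, the microtubule-associated protein of dendrites, was among the most variable of the 10. In females it was at 91.2, 195 and 168 CPM at GD45, at 576, 469 and 105 CPM at GD60, and at 117, 457 and 200 CPM at GD90. Males had it at 236, 393 and 17.9 CPM at GD45, at 276, 154 and 132 CPM at GD60, and at 573, 766 and 789 CPM at GD90. The highest GD90 male was 1.38-fold above the lowest, against 2.09-fold or more in every other group. The log2 values of males at GD90 were 1.92 above GD60 (SE 0.76) and 1.72 above GD45 (SE 0.76), and neither passed the test (adjusted p = 0.0613 and 0.0717). Without male GD45 replicate 17, the lowest library at 17.9 CPM, the former was called (adjusted p = 0.00761), as it was without male GD45 replicate 14 or female GD60 replicate 15 (adjusted p = 0.0479 and 0.0436). None of these libraries is in the groups compared, and the log2 value stayed at 1.92. All groups share the estimate of spread in the fit, so the p of this difference changed without the difference itself. The latter was called without male GD45 replicate 14 (log2 2.48, adjusted p = 0.0259). Over 33 alternative fits the former was called in 9 and the latter in 5. Summed over litter mates, which pools the sexes, MAP2 was higher at GD90 than at GD45 (log2 1.38, SE 0.45, adjusted p = 0.022). Against GD60 it was not called in those sums (log2 0.77, adjusted p = 0.192).

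MAP1B, which is expressed early in growing axons, went with MAP2 library by library. Its values in females were 188, 318 and 325 CPM at GD45, 1108, 888 and 251 CPM at GD60, and 235, 749 and 359 CPM at GD90. In males they were 383, 645 and 48.7 CPM at GD45, 518, 309 and 265 CPM at GD60, and 918, 1228 and 1279 CPM at GD90. Each female group reached across the others, and the GD90 males again stood above all GD45 and GD60 males. Only the male difference of GD90 against GD45 was called (log2 value 1.67, SE 0.66, adjusted p = 0.0472), and that call was lost in 20 of 33 alternative fits, with adjusted p over all of them from 0.0134 to 0.131. Of 18 fits without 1 library it held only without male GD45 replicate 14, female GD60 replicate 3 or 15, or female GD90 replicate 2 or 7. Leaving out male GD45 replicate 17 lowered the value to 1.14 (adjusted p = 0.0923), while it gave a male call from GD60 to GD90 (log2 1.65, adjusted p = 0.00859) and a female one from GD45 to GD60 (log2 1.43, adjusted p = 0.048). The former was also called without male GD45 replicate 14 or female GD60 replicate 15 (adjusted p = 0.0459 and 0.045).

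MAPT encodes tau, the microtubule-associated protein of axons. It was at 1732, 1988 and 1653 CPM in GD45 females, at 2540, 2379 and 2184 CPM in GD60 females, and at 2027, 2457 and 2252 CPM in GD90 females. In males it was at 2079, 2084 and 1820 CPM at GD45, at 2373, 2656 and 2836 CPM at GD60, and at 2265, 2456 and 2343 CPM at GD90. In each sex the 3 GD60 libraries lay above the 3 GD45 libraries. The difference of GD60 from GD45 missed the threshold in females (log2 0.40, SE 0.12, adjusted p = 0.0511) and in males (log2 0.39, SE 0.12, adjusted p = 0.0667). The female one was called without male GD45 replicate 17 or female GD60 replicate 15 (adjusted p = 0.023 and 0.0415). The rise from GD45 to GD90 was called in females (log2 0.33, SE 0.12, adjusted p = 0.0395) but not in males (log2 0.24, adjusted p = 0.108). The female call was lost in 14 of 33 alternative fits, among them those without female GD45 replicate 12 or 18, female GD60 replicate 5, male GD60 replicate 6, female GD90 replicate 7 or 9, or any GD90 male (adjusted p of 0.052 to 0.158). With the length trend of each library removed, MAPT was lower at GD90 than at GD60 in males (log2 -0.33, adjusted p = 0.0295). Summed over litter mates, 3 litters a day, MAPT was higher at GD60 than at GD45 (log2 0.40, SE 0.10, adjusted p = 0.0307).

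Both MAPT and MAP2 have an exon of 93 bases that adds a repeat to the microtubule-binding region. Its use is given below from the exon-wise counts.

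DCX, doublecortin, binds the microtubules of migrating neurons. It was at 23.5, 57.3 and 53.6 CPM in GD45 females, at 349, 263 and 38.9 CPM in GD60 females, and at 14.4, 103 and 30.04 CPM in GD90 females. Males had it at 90.9, 220 and 14.2 CPM at GD45, at 130, 76.0 and 57.7 CPM at GD60, and at 137, 171 and 177 CPM at GD90. Within each sex the days overlapped except for the males of GD90, which lay above those of GD60. In females the log2 difference of DCX was 2.28 for GD60 against GD45 (SE 0.84, adjusted p = 0.12) and -2.15 for GD90 against GD60 (SE 0.84, adjusted p = 0.0688), and it passed the test in no day comparison. Without male GD45 replicate 17 both female differences were called (adjusted p = 0.0358 and 0.0215), as they were without female GD60 replicate 15 (log2 2.77 and -2.64, adjusted p = 0.0466 and 0.0238). The second was also called without male GD45 replicate 14 or female GD90 replicate 7 (adjusted p = 0.0476 and 0.0212).

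DCLK1, a doublecortin-like kinase, rose over gestation. It was at 464, 502 and 460 CPM in GD45 females, at 822, 724 and 588 CPM in GD60 females, and at 651, 913 and 790 CPM in GD90 females. In males it was at 555, 631 and 278 CPM at GD45, at 691, 487 and 537 CPM at GD60, and at 908, 1128 and 1135 CPM at GD90. GD90 lay above GD45 with no overlap in either sex. The rise from GD45 to GD90 was 0.72 in females (SE 0.23, adjusted p = 0.0209) and 1.12 in males (SE 0.24, adjusted p = 0.00102). Without male GD45 replicate 17, the female difference of GD60 from GD45 was called too (log2 0.57, adjusted p = 0.0222). The rise from GD60 to GD90 was called in males (0.89, SE 0.23, adjusted p = 0.00826) and not in females (0.14, SE 0.23, adjusted p = 0.692). Both male calls held in all 33 alternative fits. The female call was lost without female GD45 replicate 12 or 18 or female GD90 replicate 7 or 9 (adjusted p = 0.0602, 0.0653, 0.0878 and 0.0509).

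PAFAH1B1, whose product LIS1 regulates the motor dynein during nuclear movement, rose in both sexes. It was at 308, 312 and 290 CPM in GD45 females, at 397, 354 and 330 CPM in GD60 females, and at 478, 479 and 464 CPM in GD90 females. Males had it at 324, 340 and 262 CPM at GD45, at 357, 294 and 332 CPM at GD60, and at 484, 576 and 546 CPM at GD90. All 6 GD90 libraries were above all 12 earlier ones. The rise from GD45 to GD90 was 0.64 in females (SE 0.12, adjusted p = 0.000407) and 0.79 in males (SE 0.12, adjusted p = 5.1e-05), called in all 33 alternative fits in both sexes. From GD60 to GD90 it was 0.39 in females (SE 0.12, adjusted p = 0.0207) and 0.71 in males (SE 0.12, adjusted p = 0.00032). The female GD60 call was lost without any 1 of female GD60 replicates 5 and 15 and female GD90 replicates 2 and 7, at adjusted p = 0.0676, 0.0697, 0.0588 and 0.0519.

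STMN2, a stathmin that binds free tubulin in growth cones, was at 2384, 2201 and 1697 CPM in GD45 females, at 2228, 2210 and 3971 CPM in GD60 females, and at 3512, 3035 and 3157 CPM in GD90 females. In males it was at 2163, 1927 and 1932 CPM at GD45, at 2452, 2595 and 2809 CPM at GD60, and at 2691, 2973 and 2746 CPM at GD90. GD90 stood above GD45 in both sexes without overlap. The rise was 0.63 in females (SE 0.19, adjusted p = 0.0145) and 0.48 in males (SE 0.19, adjusted p = 0.0449). The male call was lost in 16 of 33 alternative fits (adjusted p over all of them from 0.00523 to 0.138), and of the 18 without 1 library it held only without female GD45 replicate 12 or 18 or a GD60 female. The female call was lost without female GD45 replicate 18 or female GD90 replicate 2 (adjusted p = 0.0805 and 0.0579). Without female GD60 replicate 15 the female difference of GD90 from GD60 was called (log2 0.54, adjusted p = 0.0109).

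GAP43, a membrane protein of growing axon tips, passed the test in no comparison. Its group means lay between 457 ± 34.2 CPM in GD90 males and 619 ± 86.2 CPM in GD90 females (SD, n = 3), and its day differences between -0.15 and 0.43 on the log2 scale, with adjusted p of at least 0.1. Without male GD45 replicate 17, the female rises to GD90 from GD45 (log2 0.42, adjusted p = 0.0367) and from GD60 (log2 0.44, adjusted p = 0.0404) were called, the latter also without female GD60 replicate 15 (log2 0.63, adjusted p = 0.0314). The GAP43 model of the count table runs from 144364314 to 144855433 on the minus strand of chromosome 13, whereas RefSeq's GAP43 ends at 144458136. The rest covers a RefSeq pseudogene and 2 long noncoding RNA genes on the same strand, so the counts may hold reads of these.

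**Figure D2:**
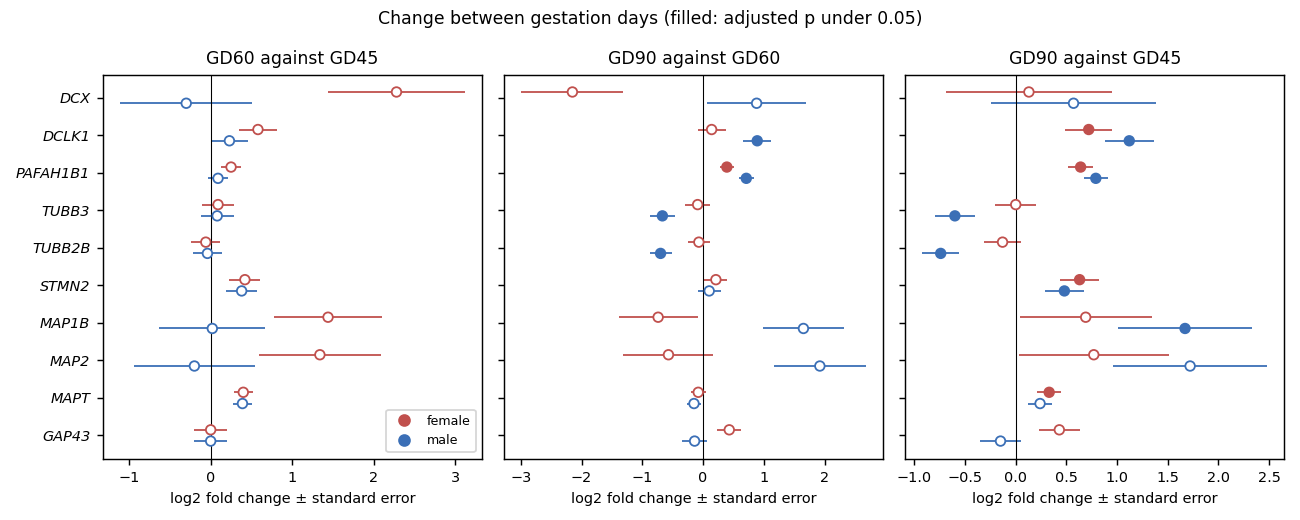
Log2 fold change between gestation days with its standard error (horizontal axes, each with its own range) for the 10 genes, females in red and males in blue, filled where the edgeR adjusted p was under 0.05. PAFAH1B1 and DCLK1 are filled to the right of 0 for GD90 against GD45 in both sexes, and TUBB3 and TUBB2B to the left in males.

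Counted over the 10 genes, none was called between GD45 and GD60 in either sex with edgeR's quasi-likelihood test, although 5 in females and 1 in males had an unadjusted p under 0.05, as had 21.4% and 18.1% of all genes. DESeq2 called 1 in each sex, and 11.5% and 9.18% of all genes. Of all tested genes, 4.34% rose and 2.88% fell in females over this span, and 3.08% and 2.53% in males. From GD60 to GD90, 1 of 10 rose in females (13.7% of all genes rose and 13.4% fell), and in males 2 rose and 2 fell (18.5% and 16% of all genes). From GD45 to GD90, 4 of 10 rose and none fell in females (20% and 18.9% of all genes). In males 4 rose and 2 fell over that span (23.4% and 24.3% of all genes). The median log2 difference of the 10 from GD45 to GD90 was 0.53 in each sex, against -0.01 over all tested genes. Leaving out male GD45 replicate 17 changed the female counts to 4, 3 and 5 called genes for GD60 against GD45, GD90 against GD60 and GD90 against GD45, and the male counts to 0, 6 and 3. In that fit 14%, 35.9% and 46.4% of all genes were called in females over the same spans, and 9.32%, 44.3% and 42.3% in males.

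Between the sexes no gene of the 10 passed the test at GD45, GD60 or GD90, where edgeR called 0.0919%, 0.098% and 0.098% of all genes. At an unadjusted p under 0.05 there were 0, 0 and 1, against 2.59%, 4.8% and 13.6% of all genes. DESeq2 called none of the 10 at any day, and 0.11%, 0.129% and 0.319% of all genes. These fits take the libraries as unpaired. With the inferred litter as a block in the 6 libraries of GD90, edgeR called 7 of the 10, among 21.4% of all genes. DCX (log2 2.14, adjusted p = 0.0115), MAP2 (1.68, adjusted p = 0.0101), MAP1B (1.51, adjusted p = 0.00996) and DCLK1 (0.44, adjusted p = 0.011) were higher in males in 3 of 3 pairs. TUBB3, TUBB2B and GAP43 were lower in males in 3 of 3 pairs, with log2 values of -0.38, -0.34 and -0.43 (adjusted p = 0.0172, 0.0193 and 0.0294). With the length trend of each library also removed, DCX, MAP1B, MAP2 and TUBB2B were called, among 11.4% of all genes. At GD90, 8 of the 10 had groups that did not overlap. DCX, PAFAH1B1, MAP1B and MAP2 were higher in every male than in any female, and TUBB3, TUBB2B, STMN2 and GAP43 were lower. Such separation was common at GD90, where 35.8% of all tested genes showed it, against 11.2% at GD60 and 5.6% at GD45, days at which none of the 10 did. Without the block, the largest of these GD90 differences were those of DCX (log2 1.72, SE 0.83, adjusted p = 0.373), MAP2 (1.46, SE 0.75, adjusted p = 0.38) and MAP1B (1.35, SE 0.66, adjusted p = 0.374). The length slopes of the 3 females and 3 males did not overlap either, so sex and length trend cannot be told apart in these 6 libraries.

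Whether the change over gestation differed by sex was tested directly. No gene was called for either span, the earlier one up to GD60 or the later one up to GD90, which is 0% of all genes in each case. At an unadjusted p under 0.05 there was 1 of the 10 in the first span and 5 in the second (DCX, DCLK1, TUBB2B, MAP1B and MAP2, adjusted p of 0.213 to 0.237), against 2.04% and 19.8% of all genes. DESeq2 also called none of the 10 in either span, and 0% and 1.82% of all genes. Without male GD45 replicate 17 those 5 were called for GD60 to GD90, among 13.3% of all genes. With the length trend of each library also removed, TUBB2B alone of the 10 was called, among 5.22% of all genes.

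The levels of most of these genes moved with the length trend of the library. Which share of all tested genes did so was not tested. The relations below thus do not set these genes apart from other genes. Over 18 libraries the correlation of log2 CPM with the length slope was r = 0.97 for MAP1B (Spearman's rho 0.94), 0.96 for MAP2 (rho 0.92), 0.89 for DCLK1 (rho 0.81), 0.83 for DCX (rho 0.85) and 0.68 for PAFAH1B1 (rho 0.71). It was -0.89 for TUBB3 (rho -0.85), -0.87 for TUBB2B (rho -0.77) and -0.64 for GAP43 (rho -0.69). Over all 18 libraries the relation did not pass the threshold for STMN2 (r = 0.13, rho 0.04) or MAPT (r = 0.39, rho 0.35). Of 13 relations tested, with p from 100000 permutations of the libraries and Benjamini-Hochberg adjustment, the adjusted p of r was 3.7e-05 or less for DCX, DCLK1, TUBB3, TUBB2B, MAP1B and MAP2, 0.0017 for PAFAH1B1 and 0.0048 for GAP43, 0.61 for STMN2 and 0.12 for MAPT. The adjusted p of rho was 9.7e-05 or less for DCX, DCLK1, TUBB3, MAP1B and MAP2, 0.00038 for TUBB2B, 0.0018 for PAFAH1B1, 0.0026 for GAP43, 0.88 for STMN2 and 0.17 for MAPT. The smallest p that the permutations can give is 1e-05. Litter mates and libraries of 1 day are not fully exchangeable, so these p are approximate.

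Without the 2 libraries farthest from the median slope, male GD45 replicate 17 and male GD90 replicate 10, r was 0.93 for MAP1B, 0.92 for MAP2, 0.80 for DCX, 0.79 for DCLK1, -0.79 for TUBB3, -0.74 for TUBB2B, -0.57 for GAP43 and 0.53 for PAFAH1B1. Within a day, over 6 libraries, r for MAP1B was 0.99, 0.87 and 0.99 at GD45, GD60 and GD90, and for DCX 0.92, 0.79 and 0.97. STMN2 had -0.07, -0.41 and -0.89, and MAPT had 0.40, -0.49 and 0.74, so within a day their values differed from the pooled ones. For each of the other 6 genes the r within every day had the sign of the pooled one. The gene models of MAP1B (16488 bases), DCLK1 (13227), DCX (9349) and MAP2 (7810) are long beside the tested genes, whose median is 4186 bases. Those of TUBB3 (2449), STMN2 (2599) and GAP43 (2833) are short. The TUBB2B model (5389 bases) is above the median, yet its level fell along the slope (r = -0.87 over 18 libraries). MAPT (7418 bases) and PAFAH1B1 (6747) are long as well, but stayed within 1.72-fold and 2.20-fold. With the length trend of each library removed before the fit, the DCLK1, PAFAH1B1, TUBB3 and TUBB2B calls held in males, and PAFAH1B1 and DCLK1 from GD45 to GD90 held in females, while MAP1B in males was not called (log2 1.42, adjusted p = 0.0526). The part of the length trend in the values was not tested further.

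**Figure D3:**
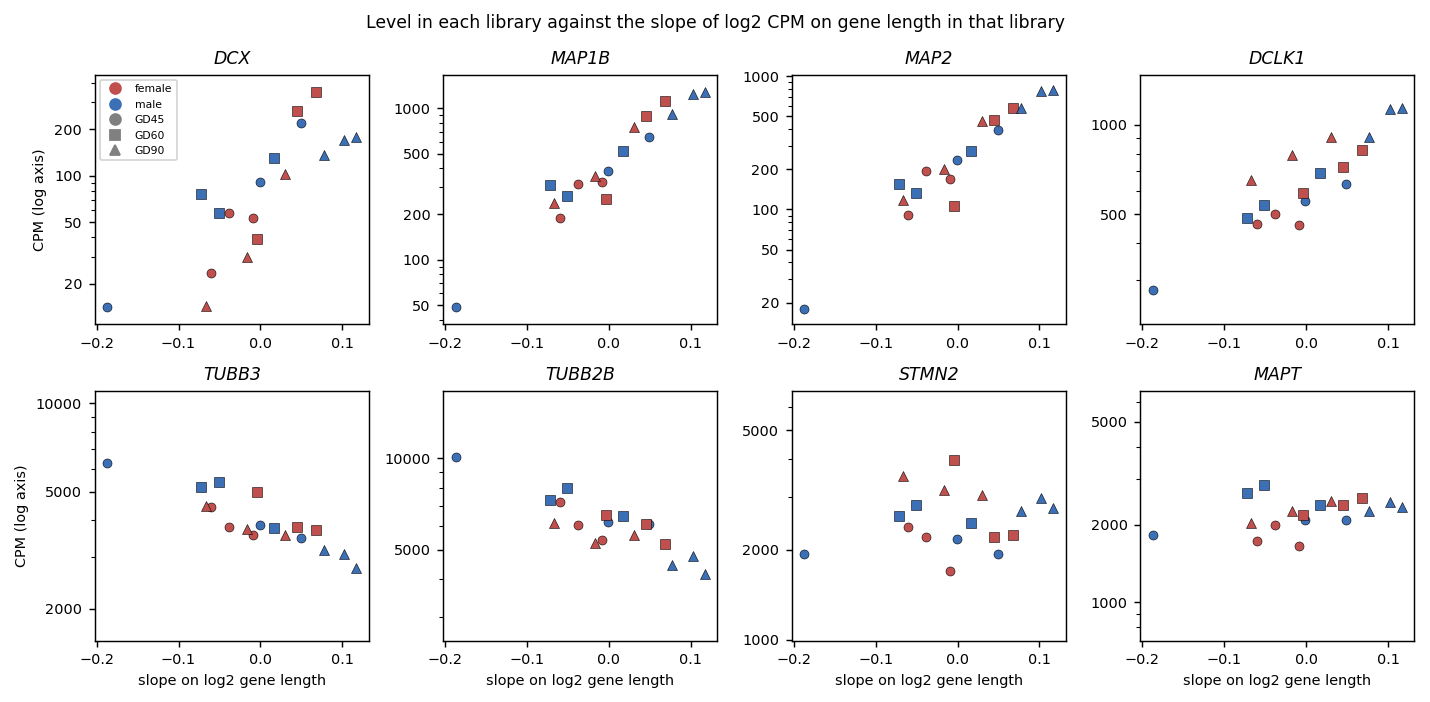
CPM (log axis, its range set for each gene) of 8 genes in each library against the slope of log2 CPM on log2 gene length in that library, females in red, males in blue, with circles for GD45, squares for GD60 and triangles for GD90. The points of MAP1B and MAP2 rise along the slope (r = 0.97 and 0.96), those of TUBB3 fall (r = -0.89), and those of STMN2 and MAPT show no trend past the threshold over all 18 libraries.

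In the exon-wise table MAPT had 30 exons, of which 17 held no count in any library. Most of these 17 share bases with another listed MAPT exon, and how reads on shared bases were counted is not known. A count of 0 there does not show that the exon was unused. The percents of MAPT exon counts below are shares of the counts listed, not of all MAPT reads. The table holds 48.6% as many counts as the gene-wise one. In all, 8 MAPT exons and 18 of 24 MAP2 exons could be tested for use, the count of an exon relative to all exons of its gene, over sums of litter mates with 3 litters a day. Between GD45 and GD60 and between GD60 and GD90 no exon of either gene was called by edgeR's diffSpliceDGE (0.0328% and 0.103% of all exons were), and limma's diffSplice also called none. At an unadjusted p under 0.05 there were 2 MAPT exons in the first span and none in the second, and none of MAP2 in either, against 4.8% and 5.21% of all exons.

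Between GD45 and GD90, 5 of the 8 MAPT exons rose in use, against 1.92% of all exons called in either direction. Of these, the 93-base exon had the largest change. It made up 0.0591 ± 0.0362% of MAPT exon counts at GD45, 0.135 ± 0.0549% at GD60 and 0.224 ± 0.0421% at GD90 (SD, n = 3 litters), a log2 change in use of 1.92 from GD45 to GD90 (adjusted p = 0.00741). The other 4 rose by 1.06 (the 56-base exon, adjusted p = 0.0344), 1.00 (82 bases, adjusted p = 0.0347), 0.90 (133 bases, adjusted p = 0.046) and 0.89 (266 bases, adjusted p = 0.0408). All 5 lie upstream of the 3′ exon of 4018 bases, which held 87.4 ± 4.84% of counts at GD45 and 76.8 ± 5.3% at GD90. The number called fell to 1, the 93-base exon, without the GD45 litter of 16, the GD60 litter of 15 or the GD90 litter of 18. It fell to 0 without the GD45 litter of 8 or the GD90 litter of 11. Neither did limma's diffSplice call any of the 5, and its 1 call was the 3′ exon, which was lower. In males alone the 93-base exon was called, and in females alone no exon was.

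Set against its neighbors alone, the MAPT exon stayed rare. Of the counts on it and on the exons of 266 and 82 bases beside it, it took 17, 11 and 3 counts in the litters of GD45, which is 1.18%, 0.638% and 0.393%. At GD60 it took 30, 28 and 14 counts (1.13%, 1.22% and 0.932%), and at GD90 38, 43 and 29 counts (1.91%, 1.55% and 1.32%). The GD90 litters were above the GD45 litters and above the GD60 litters. By library the days overlapped. GD90 males were at 2.1%, 1.63% and 1.54% and GD90 females at 1.37%, 1.44% and 0.851%, while the GD45 libraries ran from 0% to 1.76%. Pooled, the share was 0.788% at GD45 (95% Clopper-Pearson interval 0.536 to 1.12%) and 1.58% at GD90 (1.3 to 1.9%), intervals that cover counting error only. Per base, the exon was at 0.0366 of the mean of those neighbors at GD45, 0.0524 at GD60 and 0.0726 at GD90. Since the exon table holds fewer counts than the gene table, these ratios compare days and are not rates of inclusion.

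The like exon of MAP2 took 19 counts at GD45, 51 at GD60 and 39 at GD90, which was 1.31%, 2.44% and 1.29% of the counts on it and its neighbors of 341 and 82 bases (intervals 0.79 to 2.04%, 1.82 to 3.19% and 0.92 to 1.76%). Its use differed by 0.78 between GD45 and GD60 and by -1.14 between GD60 and GD90 on the log2 scale, and passed the test in no span. The long exon of 3756 bases (chr15:112422019-112425774), which marks the large form of MAP2 found in dendrites, held 26.6 ± 3.73% of MAP2 exon counts at GD45, 36.5 ± 11.4% at GD60 and 49.6 ± 2.7% at GD90. The 3 GD90 litters were tight, but the difference of 0.85 from GD45 was not called (adjusted p = 0.392), nor was that of the 3′ exon, which went from 46.4 ± 3.9% to 27.3 ± 2.58% (log2 -0.75, adjusted p = 0.488).

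These shares also moved with the library. The 3′ exon of MAPT had between 65.1% and 97.6% of the gene's exon counts over 18 libraries, the highest share being in male GD45 replicate 17. That share had r = -0.91 (rho -0.89, adjusted permutation p of r 2.2e-05) with the length slope, and the 3′ exon of MAP2 had r = -0.79 (rho -0.85, adjusted permutation p of r 8.1e-05). Within a day, over 6 libraries, r was -0.95, -0.72 and -0.99 for MAPT at GD45, GD60 and GD90, and -0.58, -0.68 and -0.95 for MAP2. Without male GD45 replicate 17 and male GD90 replicate 10 it was -0.89 and -0.83. Libraries with lower levels of genes with long models thus also had a larger share of MAPT and MAP2 counts at the 3′ end. The part of this in the exon calls was not tested.

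**Figure D4:**
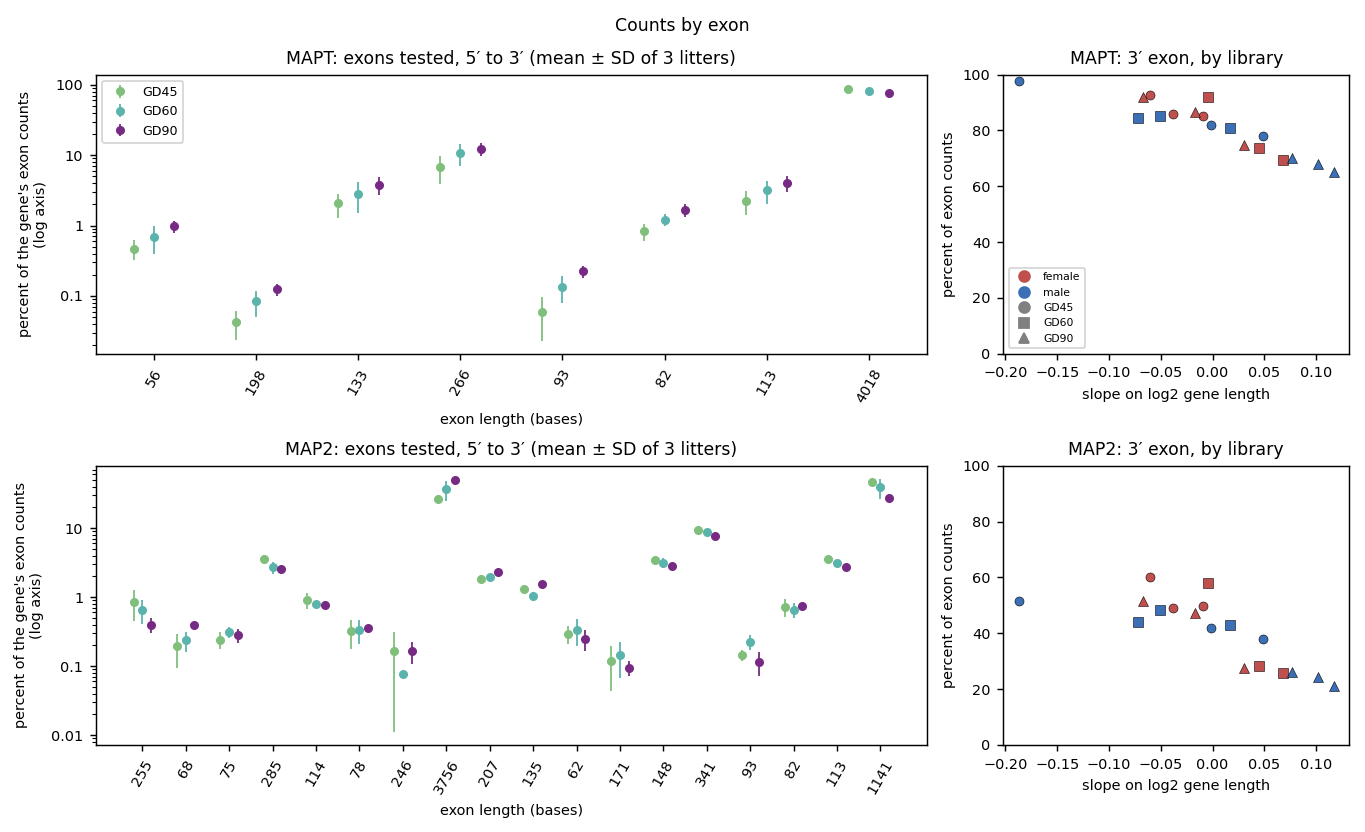
Left, percent of the gene's exon counts (log axis) on each tested exon of MAPT and MAP2, 5′ to 3′, labelled by exon length, as the mean ± SD of 3 litters at each day. Right, percent on the 3′ exon in each library against its length slope, females in red, males in blue, with circles, squares and triangles for GD45, GD60 and GD90. The MAPT exons upstream of the 3′ exon are all higher at GD90 than at GD45, and the 3′ share falls along the slope (r = -0.91 and -0.79).

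DCLK1 was added after its counts were seen. It had 19 tested exons, of which 4 rose in use from GD45 to GD90 (1.92% of all exons were called in either direction), led by an exon of 147 bases (log2 1.70, adjusted p = 0.00356). Its exon of 4817 bases held 29.8 ± 3.29% of counts at GD45 and 16.3 ± 2.31% at GD90 (log2 -0.87, adjusted p = 0.161). The 3′ exon of DCLK1 had r = -0.77 with the length slope (rho -0.86, adjusted permutation p of r 0.00019).

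Of 83 other genes of tubulins, microtubule-associated proteins and motors in 9 lists, 77 were tested. From GD45 to GD90, 27 rose and 16 fell in females (35.1% and 20.8%) and 31 rose and 19 fell in males (40.3% and 24.7%). Of all tested genes, 20% rose and 18.9% fell in females, and 23.4% rose and 24.3% fell in males, so the shares that fell were near those of all genes, and the counts of each list below are to be read against the same shares. The median log2 differences of the 77 were 0.13 and 0.26.

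Among structural microtubule-associated proteins, 6 of 9 rose in each sex and 1 fell in males. MAP1A, the partner of MAP1B in mature neurons, rose by 2.06 in females and 2.26 in males (adjusted p = 1.3e-08 and 6.2e-09), and MAP6D1 by 1.98 and 2.30. Of 11 kinesins, the motors that run along microtubules, 5 rose and 1 fell in females and 7 rose in males. KIF5A, a motor of axonal transport, rose by 1.70 and 1.78 (adjusted p = 3.0e-08 and 1.9e-08), and KIF3B by 0.81 and 1.11. Of 8 growth cone and collapsin response proteins, 4 fell in females and 5 in males, none rose, and the other 4 and 3 were not called. Among them DPYSL4 fell by 1.34 in females and by 1.82 in males, and MARCKS fell by 0.71 in females and by 0.66 in males.

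The other tubulins were divided. TUBA4A rose by 5.43 in females and 4.51 in males, and TUBB4A, known from oligodendrocytes and neurons, by 0.93 and 0.58. TUBB fell by 0.84 in females and by 1.32 in males, and TUBA8 fell by 0.56 in females and by 0.60 in males. Of the 7 tested, 3 rose and 2 fell in females and 2 rose and 3 fell in males. Among dynein subunits and the LIS1 partners, 3 of 10 rose and 2 fell in each sex. DYNC1I1, a neuronal dynein chain, rose by 2.13 and 1.86, and NDEL1, which binds LIS1, by 0.78 and 0.88, while NDE1, its relative in dividing progenitors, fell by 1.07 in females and by 0.92 in males, and DYNC1I2 fell by 0.52 in females and by 0.43 in males.

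Of the doublecortin family, 1 of 3 rose in females and 2 of 3 in males, DCLK3 by 1.27 and 1.06. STMN1, the stathmin of dividing cells, fell by 0.48 in females and by 0.87 in males, and of the 3 stathmins listed 2 rose in females and none in males. Kinases of microtubule-associated proteins had 3 of 10 higher in females and 6 of 10 in males, with 1 lower in each. CDK5R2, an activator of the neuronal kinase CDK5, rose by 1.60 and 1.77, MARK4 by 0.66 and 0.69, and MARK3 fell by 0.35 in females and by 0.33 in males. Of 16 severing, end-binding and tubulin-modifying genes, 4 rose and 5 fell in females and 5 rose and 6 fell in males. TTLL7, which adds glutamates to beta tubulin, rose by 1.54 and 2.14, MAPRE2 by 1.19 and 1.41, and SPAST, a severing enzyme, fell by 0.90 in females and by 0.69 in males. ATAT1, the alpha tubulin acetylase, fell from GD60 to GD90 by 0.95 in females and by 1.23 in males.

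The genes closest to 5 of the 10 in log2 CPM over the 18 libraries, among genes with a mean of at least 10 CPM, were these. For DCX they were SRGAP1 (r = 0.985), KMT2A (0.977) and LRP8 (0.972). For MAP1B they were MAP2 (0.995), MYO9A (0.99) and USP34 (0.99). For MAP2 they were MAP1B, PCDH19 (0.994) and PEG3 (0.992). For MAPT they were DEF8 (0.913), TNPO2 (0.907) and KLHL25 (0.906), and for GAP43 SOD1 (0.956), VDAC2 (0.942) and SKP1 (0.94). The libraries share the length trend described above. Beside the median of 4186 bases, SRGAP1 (9022 bases), KMT2A (13480), MYO9A (10815) and USP34 (11126) have long gene models, while LRP8 (3968), PCDH19 (3836) and PEG3 (4257) lie near it.

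Marker lists of the cell types in the brain moved over the same days. Of 6 tested markers of mature neurons, 5 rose from GD45 to GD90 in each sex, and their summed level went from 541 to 1090 CPM at GD45 to 2380 to 2630 CPM at GD90. All 6 oligodendrocyte markers rose in each sex, from 55.7 to 87.3 CPM in sum at GD45 to 1890 to 3210 CPM at GD90. The 5 astrocyte markers, of which 4 rose in females and 5 in males, went from 107 to 267 CPM to 1360 to 1820 CPM. Markers of radial glia fell from 1800 to 2850 CPM to 970 to 1310 CPM (5 of 6 lower in females, 6 of 6 in males) and those of dividing cells from 199 to 310 CPM to 52.7 to 73.8 CPM (5 of 5 in each sex). Markers of intermediate progenitors and neuroblasts went from 173 to 291 CPM to 137 to 177 CPM (3 of 5 lower and 1 higher in each sex). Among them EOMES went from 44.4 to 83.1 CPM to 0.389 to 6.22 CPM, and NEUROD4 from 16.2 to 29.8 CPM to 0.113 to 0.474 CPM. Most of the GD90 sum thus came from the other markers of that list. Microglial markers (6 of 6 higher in females, 3 of 6 in males) went from 75.4 to 110 CPM to 150 to 221 CPM, those of red blood cells (3 of 5 lower in females, 4 of 5 in males) from 266 to 669 CPM to 95.1 to 173 CPM, and those of meninges and connective tissue (4 of 6 lower in females, 3 lower and 1 higher of 6 in males) from 749 to 1630 CPM to 1110 to 1490 CPM. Male GD45 replicate 17 set an end of the GD45 range in every list but microglia, with 541 CPM for neurons (median of GD45 923), 107 for astrocytes (220), 2850 for radial glia (2050), 669 for red blood cells (346) and 749 for meninges (1350). No marker tested was at 0 in all libraries of a day, and the part of these shifts in the values of the 10 genes was not tested.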

How the data were processed

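RNA selected by poly(A) was sequenced as paired reads from whole fetal brains. The counts deposited by the authors were made by them with Trimmomatic, HISAT2 (Sscrofa11.1) and featureCounts (Ensembl annotation), per gene and per exon, with no normalization. The use of strand and of shared reads is not given in the sources used here, so genes that overlap on the other strand (CLUH at PAFAH1B1, MRPS27 at MAP1B, KANSL1 at MAPT, SERTM2 at DCX) may share reads with these. The transcript-wise table was not used. The 22 columns were reduced to 18 libraries by summing the 2 runs of 4 libraries.

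Genes were filtered with filterByExpr, TMM-normalized and tested with edgeR 4.0.16's quasi-likelihood F test on 6 groups of sex and day (Benjamini-Hochberg adjusted p under 0.05 over 16325 genes). The 6 groups share the estimate of spread, so leaving out a library can change calls between groups that do not hold it. Exon use was tested with diffSpliceDGE on 9 litter sums over 88318 exons. FPKM were computed from TMM CPM and the gene length of the table. Alternatives used DESeq2 1.42.0, limma 3.58.1, other filters and scalings, and lowess trends (span 0.3) on gene length or GC content, the latter added after the data were seen. The tests were checked on simulated counts in R 4.3.3. The 10 genes and all lists were chosen with earlier results of these data known. From each list at most 2 genes that rose and 2 that fell are named, those with the largest mean change among genes called alike in both sexes for GD90 against GD45 or GD60. Each library is 1 fetus per the labels, and litter mates are not independent, so p-values over libraries may be too small. TUBB3 was matched by identifier, and 6 of the 83 listed genes (TUBA1A, TUBA1C, TUBB2A, BASP1, CDK5 and SVBP) had no row by symbol, as had 7 of the markers. Exon sequences are not reported here.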

Additional observations from a re-analysis of the deposited data

Results flagged for a closer look

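Each of the 10 genes was checked at each day for a library far from the other 5 of that day (by Dixon's test on the gap to the nearest library, whose limit chance passes in about 1 of 20 groups). Of 30 such groups, 3 had one. DCX at GD45 was at 220.2 CPM in male GD45 replicate 14, next to 90.8 CPM in the nearest library. TUBB3 at GD45 was at 6249 CPM in male GD45 replicate 17, next to 4424 CPM. STMN2 at GD60 was at 3971 CPM in female GD60 replicate 15, next to 2809 CPM.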

How the results depend on the processing

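Over the 33 alternatives of each day comparison, PAFAH1B1 from GD45 to GD90 in both sexes, and PAFAH1B1, DCLK1 and TUBB2B from GD60 to GD90 and DCLK1 and TUBB2B from GD45 to GD90 in males, kept their direction and stayed called; no called gene reversed. Where counts of called genes moved, the cause was not tested. With an added limit of log2 1, the counts for GD90 against GD60 and GD45 were 0 and 0 in females and 0 and 2 in males. For GD60 against GD45, 1 gene was called in females by the likelihood ratio test, DESeq2, the 1 CPM filter, the fit of only the libraries compared and the limma litter block. In females it was 2 without male GD45 replicate 17 with the length trend removed. In males it was 1 by the likelihood ratio test, DESeq2 and that last setting. Litter sums, which are among the 33 alternatives of each sex, pool females and males. They gave 1 call for this span, 3 for GD90 against GD60 and 7 for GD90 against GD45. In these sums, 6.75% of all genes rose and 4.86% fell over this span. The like shares were 18.7% and 18.7% for GD90 against GD60, and 26.5% and 26.8% for GD90 against GD45. Counts under the other settings in this paragraph are given without such shares. For GD90 against GD60 in females the count was 2 by the likelihood ratio test, 0 without TMM, and 3 without the GD45 litter of 8 and without replicate 17 with the trend removed. In males it was 7 in the fit of only the libraries compared, 8 with the trend also removed and 7 without replicate 17 with the trend removed. For GD90 against GD45 in females it was 2 without TMM and 2 without the GD45 litter of 8. In males it was 3 without that litter. For males against females at GD90 it was 1 in the fit of only the 6 libraries. For the interaction from GD60 to GD90 it was 2 with only the libraries compared, 4 without the GD45 litter of 8 and 1 without replicate 17 with the trend removed. Leaving out 1 library at a time gave 0 to 4, 0 to 3 and 1 to 5 calls in females, 0, 3 to 6 and 3 to 6 in males, 0 between sexes, and 0 and 0 to 5 for the interactions. For exons from GD45 to GD90 the count was 1 with limma diffSplice, 0 in females and 1 in males, and 0 to 7 with 1 litter left out, against 0 to 1 for GD45 to GD60.

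Litter mates were inferred from litter size. Their deviations from the group means correlated at -0.0932 to 0.424, over 0.1 in 5 of 9 pairs. The 18 other pairs of a day had -0.412 to 0.201, also over 0.1 in 5 pairs. At GD45, the inferred pairs of female replicate 12 with male replicate 11 (-0.0932) and female replicate 18 with male replicate 17 (-0.0457) were negative. The other inferred pairs were positive. Female GD45 replicate 12 was closest to male GD45 replicate 17 (0.201), not to its inferred mate. The inference thus remains uncertain, as do results that use it. With litter as a replicate block in the 6 libraries of a day, 7 of the 10 were called between the sexes at GD90 (21.4% of all genes), among them DCX (log2 2.14) and MAP2 (1.68), and 4 with the length trend also removed (11.4%), and 0 at GD45 and GD60.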
